A study of Mus musculus with 18 samples.

Results

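The 83 genes described here stood far below untreated kidney 1 day after a folic acid injection and again at day 14. They were chosen from the group means of the normalized counts, with 10 added to each mean. A gene needed an untreated mean of 100 or more, a day 1 mean and a day 14 mean at 0.4 times untreated or less, and a highest day 14 library under the lowest untreated library. Of 37991 genes, 8506 had the untreated level, 867 of these were at 0.4 times or less at day 1 (10.2%) and 279 at day 14 (3.28%). Both limits held for 180 genes, of which 97 had a day 14 library inside the untreated range, which left the 83. The 867 genes that were low at day 1 stood at a median of 59.1% of untreated at day 14, and the 83 at 32.6%. The untreated, day 1 and day 14 values thus chose the genes, and they are given as a description without a test.

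The kidneys came whole from Balb/c mice, all male, and no age is given. A weight of 25 to 29 g is recorded for the injected mice. The injected mice received 250 mg/kg folic acid once into the peritoneum, in 0.3 M sodium bicarbonate, and were killed 1, 2, 3, 7 or 14 days later. The untreated mice had no injection and no group had bicarbonate alone, so the vehicle and the folic acid cannot be told apart. Each of the 6 groups has 3 libraries, which the labels do not tie to separate animals, so the p-values cover only the spread of these samples, which may be technical. Folic acid at such a dose injures the renal tubule, and part of the tissue goes on to scar.

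The kidney tubule reclaims most of what the glomerulus filters, and its first segment, the proximal tubule, is also a metabolic organ. It makes the precursor of creatine and breaks down amino acids and tryptophan metabolites. It burns fatty acids in mitochondria and peroxisomes, and it takes up drugs, phosphate and folate through dedicated carriers and receptors. These functions are known to be shut down when tubule cells are injured and to return to a varying degree as the epithelium is rebuilt. In whole tissue, fewer cells of a type and less RNA per cell cannot be told apart.

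The libraries held 8.68 to 54.6 M reads in genes, of which mitochondrial transcripts took 59.0 to 75.6%, so 2.83 to 17.2 M reads covered all other genes. The thinnest was day 2 replicate 2. Markers of kidney were present in every library, such as the proximal tubule receptor gene Lrp2 (46727 to 58163 normalized counts in untreated kidney) and the loop of Henle gene Umod (18816 to 25867). The adrenal enzyme gene Cyp11b1 was at 0 in all 18 libraries, and the adrenal medulla genes Th and Dbh were at 0 in all 3 untreated libraries. The brown fat gene Ucp1 was at 248, 181 and 3.35 in the untreated libraries and at 0, 18.1 and 0 at day 14. Day 14 replicate 3 stood apart from the other day 14 libraries. Its injury marker Lcn2 was at 1710 against 336 and 236, and its summed injured-tubule markers were at 76703 against 25887 and 19675.

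Not every gene of the set is low at day 14 against all 3 untreated libraries to the same degree, and the label holds more firmly for some than for others. In 22 of the 83 genes the highest untreated library was 3 times the median of the 3 or more, against 4.41% of the 8506 genes with the untreated level. That high library was untreated replicate 1 in 5 genes, replicate 2 in 11 and replicate 3 in 6. With the median of the untreated libraries in place of their mean, 40 of the 83 genes stayed within both limits and 43 did not. The rule was also applied without each of the 9 untreated, day 1 and day 14 libraries in turn, and 16 genes passed each time. Those reported here by name are Acmsd, Acsl1, Abhd3, Apom, Aqp4, Arntl, Ddc, Eci3, Ggct, Idi1, Kcnt1, Lactb, Magi2, Npas2 and Snx31, and all 16 also stayed within both limits by the untreated median. When 1 untreated library was left out 56 genes dropped out in at least 1 of the 3 rounds, and 33 did so for day 14 libraries and 12 for day 1 libraries.

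**Figure D1:**
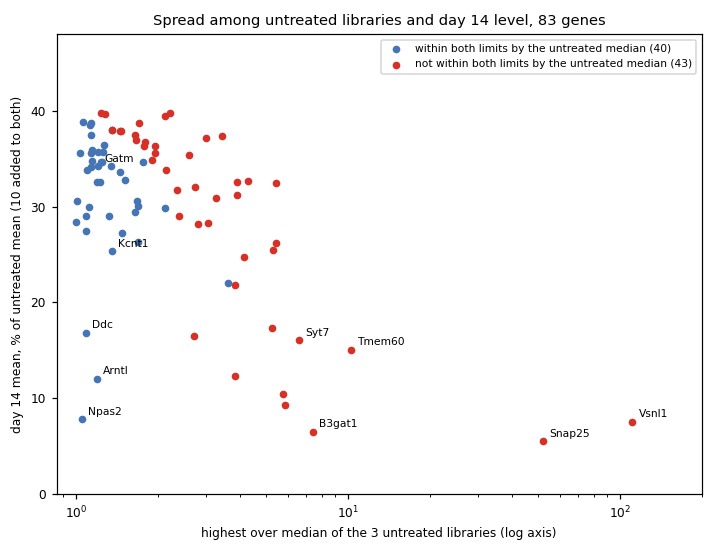
Each point is 1 of the 83 genes, with the highest untreated library over the median of the 3 untreated libraries on a log x axis and the day 14 mean as a percent of the untreated mean (10 added to both) on the y axis. Most of the lowest genes, such as Snap25, Vsnl1 and B3gat1, lie far to the right. Npas2, Arntl and Ddc are low at day 14, and their highest untreated library lies close to the median. The x axis does not show a low untreated library, such as replicate 2 in Ddc.

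The ranking by day 14 level is led by genes of this uneven kind. Of the 24 lowest genes, 15 had an untreated library at 3 times the median or more, and 8 stayed within both limits by the untreated median. Snap25, a membrane fusion protein of secretory vesicles, was at 10.2, 12.6 and 655 normalized counts in the untreated libraries and at 4.56, 2.13 and 2.15 at day 14. The calcium sensor gene Vsnl1 was at 2.90, 3.77 and 419 in untreated kidney and at 0, 2.13 and 2.15 at day 14. For both genes untreated replicate 3 alone was high, and the other 2 untreated libraries lay close to the day 14 values. The source of the high Snap25 and Vsnl1 values was not tested. B3gat1, which makes a sulfated sugar epitope of neural cells, was at 499, 19.5 and 67 in untreated kidney and at 4.56, 3.19 and 2.15 at day 14. Tmem60, a membrane protein gene, was at 174, 1785 and 144 in untreated kidney and at 133, 96.9 and 61.2 at day 14. The day 14 mean of Tmem60 was 15.1% of the untreated mean and 58.2% of the untreated median.

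The other genes of the lowest 24 with an untreated library at 3 times the median or more were Zfp85os, Ablim3, Ppard, Syt7, Dedd2, Glis1, Pnkd, Pctp, Fastkd2, Rgcc and Zc2hc1c. Ppard, the lipid-sensing nuclear receptor PPAR delta, was at 2025, 528 and 273 in untreated kidney, at 773, 111 and 74.2 at day 1, and at 123, 106 and 91.2 at day 14. Its related receptor gene Ppara was at 519, 562 and 363 in untreated kidney and at 477, 494 and 378 at day 14, so those groups overlapped. Pnkd, a mitochondrial protein of the metallo-beta-lactamase fold, was at 3771, 1041 and 720.1 in untreated kidney and at 416, 493 and 289 at day 14. It alone among these kept both limits by the untreated median, with a day 14 mean at 38.9% of that median. Glis1, a zinc-finger transcription factor, was at 232, 889 and 119 in untreated kidney and at 70.6, 86.2 and 90.1 at day 14. Syt7, a calcium sensor of vesicle and lysosome fusion, was at 58, 385 and 51.9 in untreated kidney and at 31.9, 18.1 and 4.29 at day 14. Zfp85os, an RNA on the strand opposite Zfp85, reached 406 in day 2 replicate 3 against 3.70 and 4.60 in the other day 2 libraries, so single high libraries were not limited to untreated kidney.

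The lowest genes with even untreated values were a pair of the circadian clock. In the clock, the proteins of Arntl (also called BMAL1) and of Npas2 or Clock form an activator that drives the Per and Cry genes, Nr1d1 and Nr1d2 (the REV-ERB repressors) and Dbp. The REV-ERB proteins and the activating ROR receptors compete for short elements in the Arntl promoter, so Arntl and its targets peak at opposite times of day. The promoters of the pair, and of 2 other genes of the set whose promoters hold the letters these receptors recognize, are shown so that the letters can be compared. Promoter windows of 250 bases before to 50 after a start, from RefSeq on GRCm38.p6, were found for 65 of the 83 genes (80 windows, some genes with several starts). Capitals mark a match to the ROR element ANTNGGTCA on either strand, and the sequences read 5′ to 3′ along the gene.
Arntl, chr7:113207261-113207560, plus strand: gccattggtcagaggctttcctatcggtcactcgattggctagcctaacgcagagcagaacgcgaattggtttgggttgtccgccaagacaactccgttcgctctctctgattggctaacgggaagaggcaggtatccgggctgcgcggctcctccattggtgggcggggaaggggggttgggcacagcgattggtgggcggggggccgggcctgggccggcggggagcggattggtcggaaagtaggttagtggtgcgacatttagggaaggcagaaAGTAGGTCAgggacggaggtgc
Npas2, chr1:39194022-39194321, plus strand: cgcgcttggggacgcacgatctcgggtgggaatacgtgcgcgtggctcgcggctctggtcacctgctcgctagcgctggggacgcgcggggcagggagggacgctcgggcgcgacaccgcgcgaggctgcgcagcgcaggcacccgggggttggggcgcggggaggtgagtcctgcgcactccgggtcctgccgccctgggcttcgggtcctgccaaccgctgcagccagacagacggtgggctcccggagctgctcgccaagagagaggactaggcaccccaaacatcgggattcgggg
Ddc, chr11:11898095-11898394, minus strand: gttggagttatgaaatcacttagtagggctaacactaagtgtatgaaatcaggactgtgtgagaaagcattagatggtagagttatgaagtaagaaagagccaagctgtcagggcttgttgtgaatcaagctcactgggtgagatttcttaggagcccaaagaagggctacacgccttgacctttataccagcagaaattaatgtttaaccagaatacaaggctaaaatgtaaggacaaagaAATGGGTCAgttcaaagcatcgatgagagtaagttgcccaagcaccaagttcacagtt
Cldn10, chr14:118787621-118787920, plus strand: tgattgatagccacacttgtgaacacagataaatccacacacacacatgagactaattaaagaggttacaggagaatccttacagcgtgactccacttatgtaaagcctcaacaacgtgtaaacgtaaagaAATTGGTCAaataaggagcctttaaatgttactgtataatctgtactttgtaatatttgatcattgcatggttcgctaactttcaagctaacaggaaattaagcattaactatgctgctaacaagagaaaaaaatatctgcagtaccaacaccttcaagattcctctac

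The element stood in 4 of the 80 windows (5.0%), those of Arntl, Ddc, Cldn10 and Apom, against 736 of all 32851 windows of this length (2.24%). The Arntl match begins at base 279 of the window, which places it past the start, the Ddc match at base 243 and the Cldn10 match at base 132. The Npas2 window held no match. The D-box TTATGTAA, the element of Dbp and its relatives, stood in 4 windows of 3 genes (Cldn10, Slc22a26 and Yif1b), 5.0% against 0.938% of all windows. The E-box CACGTG, the site of the clock activator, stood in 5 windows (6.25% against 7.15%). The HNF4 element CAAAGTCCA was found in 1 window, that of Aspdh (1.25% against 0.475%), and the HNF1 element GTTAATNAT in 1, that of Bbox1 (1.25% against 0.801%). The letters of the motifs were chosen after values of the set were known. Both strands were searched for each motif, and the motifs do not contain one another. A match describes letters in a window and not a bound site.

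Npas2 was at 207, 229.9 and 243 normalized counts in untreated kidney. It was at 55.4, 77.3 and 33 at day 1, at 57.1, 110.3 and 129 at day 2, at 19.2, 31.4 and 98.2 at day 3 and at 84.5, 15.4 and 26.4 at day 7. At day 14 it was at 12.5, 4.26 and 8.58, its lowest group, and no library of any injected group reached the untreated range. Arntl was at 200.2, 180.3 and 239 in untreated kidney, at 66.7, 47.5 and 2.54 at day 1 and at 13.7, 0 and 40.2 at day 2. It was at 61.9, 68.7 and 33.4 at day 3, at 41.4, 19.2 and 80.9 at day 7 and at 2.28, 14.9 and 31.1 at day 14. All 15 injected libraries lay under the untreated ones. The day 14 means were 7.8% of untreated for Npas2 and 12% for Arntl, and both genes passed the rule without each library in turn.

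Genes of the opposite limb of the clock were examined after the values of this pair had been seen. Per2 was at 144, 203 and 171 in untreated kidney and at 759, 989 and 900.3 at day 14. Per3 was at 248, 199 and 223 in untreated kidney and at 1007, 619 and 1042 at day 14. Dbp was at 16, 1.26 and 0 in untreated kidney and at 59.2, 55.4 and 49.4 at day 14. In these 3 genes every day 14 library lay above every untreated one. Nr1d2, at 1411, 709 and 894 against 2067, 1689 and 1347, and Nr1d1, at 699, 351 and 583 against 545, 656 and 561, overlapped between the groups. Of 13 such genes examined, 8 lay wholly above untreated at day 14 (11.2% of all genes tested), which adds Cry1, Cry2, Ciart, Bhlhe40 and Bhlhe41, and none wholly below (10.6%). The other 5 overlapped, which adds Per1, Tef and Hlf. On earlier days these genes did not move as one group. At day 1 the means of Hlf (377 against 1533 in untreated kidney) and Tef (611 against 1515) were lower. Those of Bhlhe40 (1531 against 366) and Per2 (349 against 172) were higher. The Nr1d1 mean was lowest at day 3 (181 against 544). Clock, the partner that can replace Npas2, was at 1538, 1193 and 1063 in untreated kidney and at 1012, 714 and 777 at day 14, which lay just under the untreated range. The time of day at which the mice were killed is not in the labels, so a shift of the clock with treatment and a difference in the hour of sampling cannot be told apart.

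**Figure D2:**
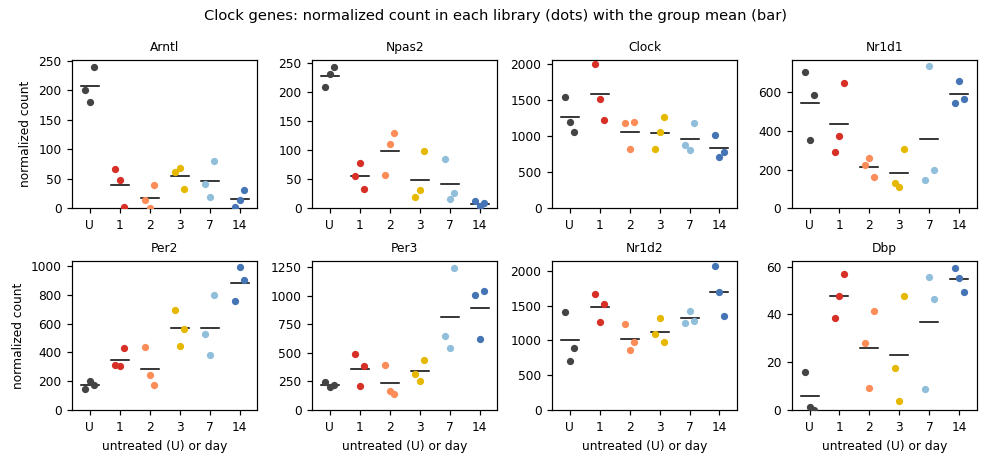
Normalized counts of 8 clock genes in each library (dots) with group means (bars), for untreated kidney (U) and days 1 to 14; each panel has its own linear y axis from 0. Arntl and Npas2 lie under untreated in every injected group, while Per2, Per3 and Dbp are at their highest group mean at day 14.

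Several of the 83 genes encode enzymes of amino acid, creatine and tryptophan metabolism. Gatm, the first enzyme of creatine synthesis, was at 15278, 15962 and 19219 normalized counts in untreated kidney. It was at 299, 552 and 424 at day 1, the lowest day 1 share of the set (2.58% of untreated), and at 960, 726 and 441 at day 2. At day 3 Gatm was at 1387, 1102 and 1838, at day 7 at 1574, 3109 and 2564, and at day 14 at 7567, 6961 and 2711. Its group mean was higher at each later time, up to 34.2% of untreated at day 14, and day 14 replicate 3 lay far under the other 2. Between day 2 and day 7, values that the choice of genes did not use, Gatm rose by 1.76 on the log2 scale (SE 0.38, edgeR adjusted p = 0.0116). Without day 7 replicate 2 the difference was 1.55 and did not pass.

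Acmsd and Haao act next to each other in the breakdown of tryptophan, where Haao makes the precursor of quinolinate and NAD and Acmsd diverts that precursor away from NAD. Acmsd was at 2437, 1732 and 2147 in untreated kidney, at 75.8, 98.5 and 87.4 at day 1 and at 216, 257 and 338 at day 2. It was at 341, 206 and 327 at day 3, at 279.5, 468 and 445 at day 7 and at 729, 925 and 486 at day 14, which is 34.2% of untreated. Haao was at 699, 793 and 672 in untreated kidney, at 97.3, 73.3 and 106 at day 1 and at 344, 333 and 116 at day 14 (37.5%). Both genes had their highest injected group mean at day 14, with each day 14 library still under every untreated one. Aspdh, which is named for aspartate dehydrogenase activity, was at 590.3, 675 and 504 in untreated kidney, at 35.4, 4.60 and 28.2 at day 2, at 113, 93.2 and 197 at day 3 and at 229, 259.8 and 107 at day 14. Its day 3 against day 2 difference of 2.39 on the log2 scale (SE 0.52, edgeR adjusted p = 0.0602) did not pass.

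Ddc, the decarboxylase with which the proximal tubule makes dopamine from filtered L-DOPA, was nearly level late in the course. It was at 777, 222 and 715 in untreated kidney and at 81.4, 135 and 173 at day 1. It was at 158, 193 and 124 at day 2, at 113, 51 and 70.2 at day 3, at 81.1, 89.2 and 81.8 at day 7 and at 86.6, 94.8 and 82.6 at day 14. The 6 libraries of day 7 and day 14 were nearly level, between 81.1 and 94.8, and the day 14 mean was 16.8% of untreated. Untreated replicate 2 was low among the untreated libraries, and Ddc still passed the rule without each library in turn. Ggct, an enzyme of glutathione breakdown, was at 207, 349.9 and 184 in untreated kidney and at 51.3, 53.2 and 68.7 at day 14 (26.3%).

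Hibch, an enzyme of valine breakdown, was at 432, 323 and 1298 in untreated kidney and at 253, 221 and 269 at day 14. Its day 14 mean was 37.1% of the untreated mean but 58.3% of the untreated median. Gcsh, a carrier protein of the glycine cleavage system, was at 1168, 702 and 2477 in untreated kidney and at 459, 364 and 454 at day 14, with a single high value of 3594 in day 2 replicate 2 against 285 and 303 in the other day 2 libraries. Both genes had 1 untreated library well above the other 2. Gm4952, a glycine N-acyltransferase-like gene, was at 139, 159.5 and 106 in untreated kidney and at 69.5, 47.9 and 8.58 at day 14. Gchfr, which regulates the synthesis of tetrahydrobiopterin, was at 112, 163 and 127 in untreated kidney and at 59.2, 52.2 and 30 at day 14. A list of amino acid breakdown, creatine and NAD synthesis held 38 genes with the untreated level. At day 1, 24 of them were at 0.4 times untreated or less (10.2% of all genes with the level). At day 14, 5 were that low (3.28% of all) and 9 were back at 0.8 times or more. The 5 are Ddc, Acmsd, Gatm, Hibch and Haao. Of the list's 44 tested genes, 4 rose and none fell between day 2 and day 7, beside 2.77% higher and 2.44% lower over all genes tested.

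Lipid and mitochondrial enzymes formed the next group. Acsl1, which activates long-chain fatty acids for oxidation or storage, was at 2354, 2841 and 2177 in untreated kidney and at 313, 449.7 and 813 at day 1. At day 2 it was at 2425, 832 and 884, with replicate 1 in the untreated range and the other 2 well under it. It was at 897, 629 and 753 at day 3, at 949, 758 and 778 at day 7 and at 916, 953 and 745 at day 14, so from day 3 on all 9 libraries lay between 629 and 953. Eci3, a peroxisomal isomerase for the oxidation of unsaturated fatty acids, was at 1268, 2602 and 1546 in untreated kidney. It was at 40.7, 297 and 152 at day 1, at 135, 46 and 44.3 at day 2, at 177, 192 and 200.4 at day 3, at 165, 213 and 209 at day 7 and at 424, 911 and 300.5 at day 14. Eci3 stayed between 4.69 and 11.3% of untreated in group mean through day 7 and was at 30.6% at day 14.

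Acox2, a peroxisomal oxidase of branched-chain fatty acids and bile acid precursors, was at 1464, 1489 and 1837 in untreated kidney and at 733, 679 and 474 at day 14. Bbox1, the last enzyme of carnitine synthesis, was at 557, 284 and 276 in untreated kidney, at 31.9, 74.9 and 64.5 at day 7 and at 169.8, 129 and 88 at day 14. Both genes were within the limit by their means and not by the untreated median, with day 14 at 42.6% and 47.2% of that median. Abhd3, which cleaves medium-chain phospholipids, was at 837, 563 and 765 in untreated kidney and at 236, 309.8 and 62.2 at day 14. Apom, the carrier of sphingosine phosphate on lipoproteins, was at 721, 715 and 958 in untreated kidney, at 50.2, 59.7 and 215 at day 2 and at 190.3, 369 and 114 at day 14. In both of these day 14 replicate 3 was the lowest of its group.

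Idi1, an isomerase of cholesterol synthesis, was at 321, 192 and 318 in untreated kidney, between 33.6 and 37.3 at day 7 and at 82, 109 and 42.9 at day 14. Lactb, a filament-forming protein of the mitochondrial intermembrane space, was at 563, 927 and 551 in untreated kidney and at 277, 182 and 120.2 at day 14. Idi1 and Lactb belong to the 16 genes that passed without each library. Clpx, the unfoldase of a mitochondrial protease, was at 1706, 1924 and 1670 in untreated kidney and at 1058, 549 and 416 at day 14. Pdk3, a kinase that switches off pyruvate dehydrogenase, was at 622, 640.1 and 1797 in untreated kidney and at 283, 371 and 189 at day 14, or 44.7% of the untreated median.

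Most of the remaining lipid and mitochondrial genes had uneven untreated values. Mocs2, an enzyme of molybdenum cofactor synthesis, was at 666, 734 and 2874 in untreated kidney and at 482, 603 and 288 at day 14. Fam210b, a mitochondrial membrane protein gene, was at 232, 1260.1 and 214 in untreated kidney and at 149, 185 and 199.6 at day 14, which is 77.7% of the untreated median. Fastkd2, a mitochondrial RNA-binding protein gene, was at 1239, 198 and 234 in untreated kidney and at 155, 181 and 67.6 at day 14. The highest day 14 library of each of these 3 genes lay just under the lowest untreated one. Faah, which degrades endocannabinoids, was at 1369, 347 and 640 in untreated kidney and at 326, 250.2 and 202 at day 14. Pctp, the phosphatidylcholine transfer protein, was at 200.2, 115 and 831 in untreated kidney and at 62.7, 90.5 and 108 at day 14. In all 5 genes 1 untreated library was at more than 2 times the median of the 3. Hsd17b2, which inactivates testosterone and estradiol, had even untreated values of 191, 209 and 147 and was at 41, 69.2 and 18.2 at day 14. A list of peroxisomal and mitochondrial oxidases held 38 genes with the untreated level. At day 1, 15 of them were at 0.4 times untreated or less (10.2% of all genes with the level). At day 14, 3 were that low (Acsl1, Bbox1 and Acox2), beside 3.28% of all. Between day 2 and day 7, 1 gene of the list rose and 2 fell, near the shares over all genes tested (2.77% and 2.44%).

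**Figure D3:**
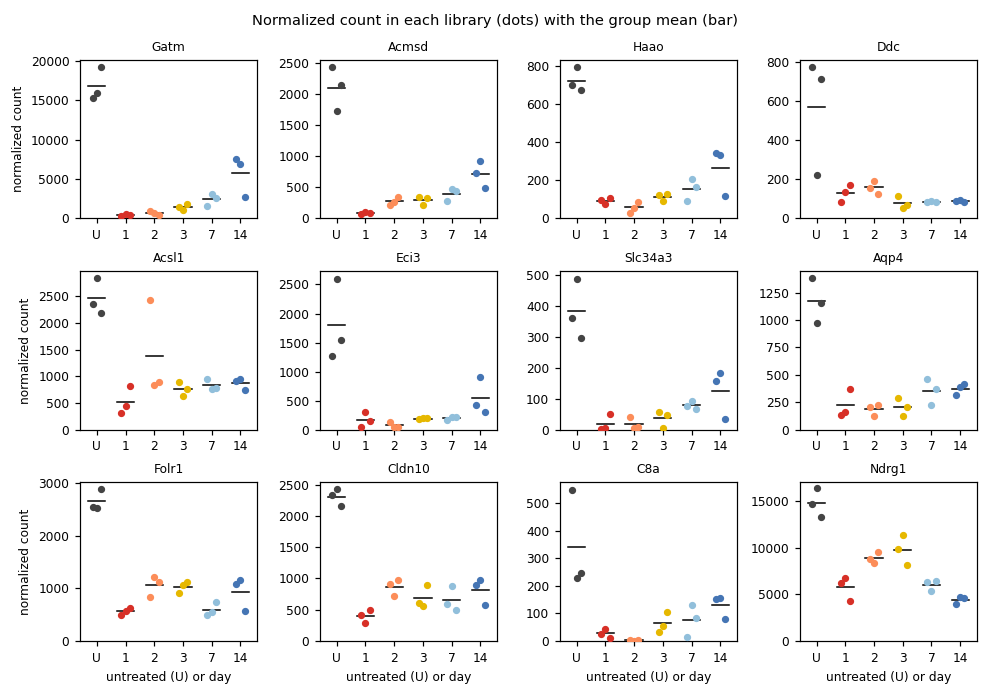
Normalized counts of 12 of the 83 genes in each library (dots) with group means (bars), for untreated kidney (U) and days 1 to 14; each panel has its own linear y axis from 0. Gatm, Acmsd and Haao have their highest injected group mean at day 14, Ddc and Acsl1 are nearly level from day 3 on, and Ndrg1 is lowest at day 14.

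Carriers, receptors and channels of the tubule were a further group. Slc34a3, a sodium-phosphate cotransporter of the proximal tubule brush border, was at 363, 489 and 298 in untreated kidney and at 1.13, 4.01 and 49.3 at day 1. It was at 40.7, 4.60 and 9.05 at day 2, at 56.7, 5.89 and 46.4 at day 3, at 75.1, 93.1 and 66.4 at day 7 and at 157, 183 and 33.3 at day 14. Slc34a1, the major cotransporter of the same family and no member of the set, was at 11551, 13805 and 7621 at day 14 against 16405 to 21023 in untreated kidney. Slc22a26, an organic anion transporter gene, was at 508, 838 and 669.9 in untreated kidney, at 46.4, 91.1 and 180.4 at day 1 and at 11.1, 4.60 and 31.2 at day 2. It was at 94, 71 and 111 at day 7 and at 318, 287 and 73 at day 14, and between day 2 and day 7 it rose by 2.40 on the log2 scale (SE 0.64, edgeR adjusted p = 0.0376). That call was lost without either of day 2 replicates 1 and 2 and without each day 7 library, with differences of 2.09 to 2.56. It was also lost with limma-voom (2.59, adjusted p = 0.124) and with only the day 2, 3 and 7 libraries (2.44, adjusted p = 0.0844).

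Slco1a1, an organic anion uptake carrier that is higher in male kidney, was at 10808, 6047 and 4830 in untreated kidney. It was at 471, 1569 and 546 at day 7 and at 2734, 4679 and 456 at day 14, so day 14 replicate 3 was as low as the lowest day 7 libraries. Ugt2b38, a glucuronosyltransferase of drug and steroid conjugation, was at 14454, 11719 and 9450.3 in untreated kidney and at 4746, 6398 and 1173 at day 14. In this gene too the third day 14 library was the lowest of all 18. The summed level of a list of male-biased kidney genes was 39700 in day 14 replicate 3 against 105678 and 136511 in the other 2, and 186531 to 215775 in untreated kidney. Of the 17 genes of that list 13 were at 0.4 times untreated or less at day 1, 3 at day 14, and 1 is in the set. Over all genes with the untreated level the shares were 10.2%, 3.28% and 0.976%. Lists not chosen by sex were lower in that library too. Proximal tubule genes of the S3 segment summed to 68737 against 151525 and 196721 in the other 2. A list of drug oxidation and conjugation was at 75412 against 145084 and 172086. The list of amino acid breakdown, creatine and NAD synthesis was at 36529 against 69687 and 72261. A list of 4 female-biased genes went the other way, at 3566 against 2229 and 2653. The part of day 14 replicate 3 in these values was not tested beyond leaving it out.

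Folr1, the folate receptor through which the proximal tubule recovers filtered folate, was at 2544, 2525 and 2889 in untreated kidney and at 494, 567 and 629 at day 1. It was at 838, 1222 and 1125 at day 2, at 910, 1057 and 1129 at day 3, at 493, 559 and 739 at day 7 and at 1088, 1161 and 564 at day 14. The group means thus lay at 21.5, 40.3, 39.1, 22.8 and 35.6% of untreated in turn, with no steady course. The other folate carriers were looked at after this was seen. Slc46a1, the proton-coupled folate transporter, was at 171, 182 and 233 in untreated kidney and at 118, 89.4 and 49.4 at day 14, while Slc19a1, the reduced folate carrier, was at 573, 443 and 439 and at 332, 333 and 513 and so overlapped. Folr1 lies across Anapc15 on the other strand, so its counts are uncertain if counting ignored strand.

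Cldn10, which forms ion-selective pores between cells of the thick ascending limb and proximal tubule, had even untreated values. It was at 2337, 2427 and 2160 in untreated kidney, at 422, 284 and 497 at day 1, at 912, 721 and 968 at day 2 and at 604, 560.4 and 900 at day 3. It was at 592, 883 and 494 at day 7 and at 900.1, 973 and 570 at day 14. Of the 16 thick ascending limb genes with the untreated level, 12 were at 0.4 times untreated or less at day 1. At day 14, 11 were back at 0.8 times or more, and Cldn10 was the 1 gene still at 0.4 times or less. Over all genes with the level, 10.2% were that low at day 1 and 3.28% at day 14. Of 19 tested genes of that list 9 rose between day 2 and day 7 and none fell, beside 2.77% higher and 2.44% lower over all genes tested.

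Aqp4, a water channel of the collecting duct and of the proximal straight tubule in mice, was at 1382, 975 and 1154 in untreated kidney. It was at 130, 159 and 371 at day 1, at 202, 129 and 221 at day 2, at 286, 129 and 205 at day 3, at 460, 225 and 371 at day 7 and at 317, 393 and 414 at day 14. In Aqp4 day 14 replicate 3 was the highest of its group. Kcnt1, a potassium channel opened by sodium, had no read in any day 1 library, was at 109, 138 and 188 in untreated kidney and was at 51.3, 11.7 and 24.7 at day 14. Snx31, a sorting protein of endosomes, had nearly equal untreated values of 377, 376 and 373, was between 4.60 and 54.7 in all 12 libraries of day 1 to day 7 and was at 69.5, 194 and 35.4 at day 14.

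Regulators of growth and cell shape were few. Ndrg1, a protein induced by low oxygen and by differentiation, was at 14692, 16403 and 13324 in untreated kidney, at 6265, 6777 and 4254 at day 1 and at 8797, 8350 and 9578 at day 2. It was at 9900.3, 11343 and 8132 at day 3, at 6352, 5396 and 6422 at day 7 and at 3933, 4705 and 4636 at day 14. Its group means were 60.2 and 66.2% of untreated at days 2 and 3, and its lowest mean, 29.9%, was at day 14. The day 7 against day 3 difference of Ndrg1 was -0.71 on the log2 scale (SE 0.20, edgeR adjusted p = 0.243) and did not pass. Magi2, a scaffold of the podocyte slit diaphragm and of other junctions, was at 268, 695 and 1023 in untreated kidney and at 228, 155 and 137 at day 14. Of 9 podocyte genes with the untreated level, 3 were at 0.4 times untreated or less at day 1, and Magi2 was the 1 so low at day 14. The shares over all genes with the level were 10.2% and 3.28%.

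Tle4, a corepressor of transcription, was at 283, 1215 and 352 in untreated kidney and at 199, 212 and 262 at day 14. Sema4g, a semaphorin gene, was at 1553, 651 and 734 in untreated kidney and at 361, 427 and 354 at day 14. In both of them 1 untreated library was more than 2 times the median. Unc5c, a netrin receptor gene, was at 483, 440 and 656 in untreated kidney and at 169, 145 and 268 at day 14. Ncam2, a cell adhesion gene, was at 88.5, 40.2 and 241 in untreated kidney and at 12.5, 14.9 and 8.58 at day 14. None of these 4 stayed within both limits by the untreated median.

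Secreted proteins were also among the 83. C8a, a subunit of the complement membrane attack complex, was at 548, 229 and 248 in untreated kidney, at 26, 44.7 and 12.2 at day 1 and at 3.17, 0 and 3.02 at day 2. It was at 34, 53 and 104 at day 3, at 14.7, 129.6 and 84.6 at day 7 and at 152, 157 and 81.6 at day 14. C8a rose between day 2 and day 3 (log2 difference 4.50, SE 0.86, edgeR adjusted p = 0.029) and was higher at day 7 than at day 2 (4.72, SE 0.87, adjusted p = 0.00488). The day 3 call was lost without day 2 replicate 2 or day 3 replicate 3 (4.31 and 3.94), and with limma-voom neither call passed. With reads near 0 at day 2, the fitted size of these differences depends on the small count that edgeR adds.

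Spp2, a secreted phosphoprotein known from bone and liver, was at 470, 2062 and 631 in untreated kidney, at 33.9, 17.2 and 36.1 at day 1 and at 354, 409 and 195 at day 14. At day 2 it was at 5.28, 4876 and 24.1, a single high value in the thinnest library. Esm1, the endothelial proteoglycan endocan, was at 334, 295 and 266 in untreated kidney, at 31.2, 4.60 and 20.1 at day 2 and at 150.4, 115 and 63.3 at day 14. Of the 13 endothelial genes with the untreated level that a list held, none was at 0.4 times untreated or less at day 14, where 3.28% of all were. Col6a6, a collagen VI chain gene, was at 953, 749 and 591 in untreated kidney and at 283, 375 and 159 at day 14. Fibin, a secreted protein first named for fin development, was at 68.2, 168 and 134 in untreated kidney and at 13.7, 33 and 66.5 at day 14, the last close to the lowest untreated library.

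The other genes are given mostly by name and range. Of these, Gm853, Tmem144, Cog2, Fgfr1op, Tmem169 and the gene without a symbol, ENSMUSG00000057138, stayed within both limits by the untreated median, with day 14 means at 30.1 to 38.9% of the untreated mean. That last gene was at 193, 93 and 142 in untreated kidney, between 0 and 3.84 in 11 of the 12 libraries of day 1 to day 7 and at 53.5, 82 and 8.58 at day 14. The lincRNA D630024D03Rik was at 0, 1.15 and 4.07 at day 1, against 151, 322 and 179 in untreated kidney and 77.5, 58.6 and 84.8 at day 14. Fbxo40, an F-box protein gene known from muscle, was at 688, 473 and 384 in untreated kidney, at 43, 33.8 and 40.1 at day 1 and at 240.4, 217 and 108 at day 14. Lmbrd2, Lrrc3, Tbc1d7, Tm2d2, Tmem56 and Klhl8 were at 34.8 to 38.7% of the untreated mean at day 14, and at 39.1 to 43.3% of the untreated median. Babam1, Dgkg, Nod2, Poldip2, Ptar1 and Yif1b were at 29.1 to 35.4% of the untreated mean but at 39.9 to 64.2% of the untreated median. The genes of the lowest 24 named above without values, Ablim3, Dedd2, Rgcc and Zc2hc1c, were at 10.4 to 28.3% of the untreated mean and at 24.3 to 58.9% of the median.

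**Figure D4:**
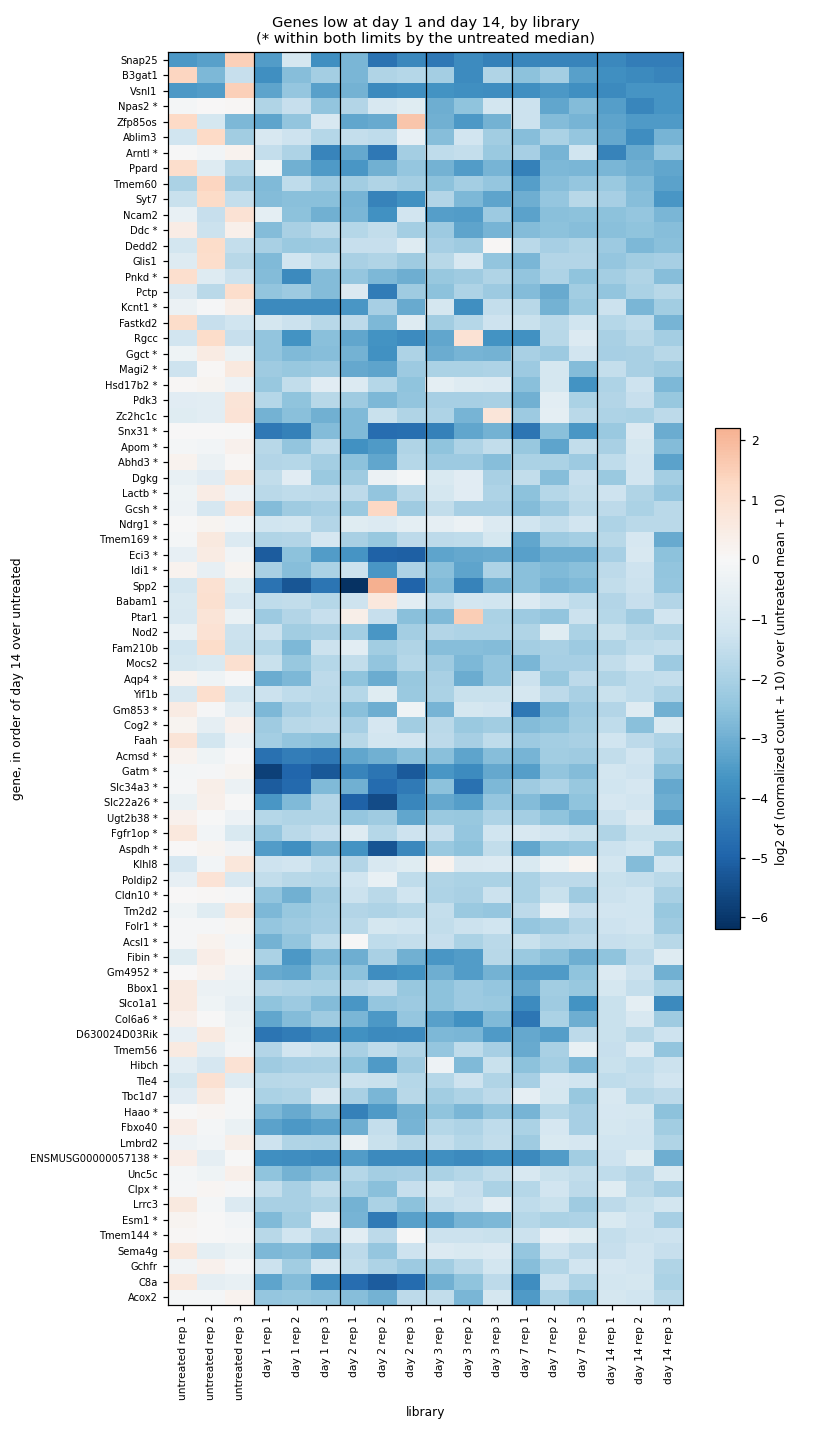
Each row is a gene of the set that is reported by name, ordered by day 14 over untreated with the lowest at the top, and each column is 1 of the 18 libraries; color gives the log2 of the normalized count plus 10 over the untreated mean plus 10. Genes with an asterisk stayed within both limits by the untreated median, and the orange cells in the untreated columns near the top are the single high untreated libraries.

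Between the days that chose the genes, the set stayed low. From day 1 through days 2, 3 and 7 to day 14, the median gene stood at 22.6, 24.5, 25.3, 22.9 and 32.6% of untreated. At day 2, 65 of the 83 genes were at 0.4 times untreated or less, against 10.1% of the 8506 genes with the untreated level. At day 3 there were 70 (7.68% of all) and at day 7 there were 74 (7.45% of all). Each comparison uses the untreated libraries that chose the genes, so these counts are no independent support. All 3 libraries lay under all untreated ones for 59 genes at day 2, 70 at day 3 and 67 at day 7, against 19.8, 21.5 and 21.9% of all. On all 5 days 55 genes were at 0.4 times or less, and 28 were above it on at least 1 of days 2, 3 and 7. The lowest group mean was that of day 1 in 22 genes, of day 2 in 24, of day 3 in 10, of day 7 in 13 and of day 14 in 14.

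The 16 genes that passed the rule without each library had medians of 22.0, 15.2, 19.6, 23.0 and 29.0% of untreated at the same times. Their lowest median was thus at day 2, and they too had their highest at day 14. Of the 83 genes 60 had a higher mean at day 14 than at day 1, of which 22 were 2 times higher or more, and 23 had a lower one, of which 6 were 2 times lower or more. The genes that were 0.4 times untreated or less at day 1 and at 0.8 times or more at day 14 numbered 218. Their medians from day 1 to day 7 were 27.7, 33.1, 49.8 and 66.7% of untreated, and their day 14 median of 100% follows from how they were chosen. At day 7 the 3 libraries of these 218 genes had medians of 56.9, 66.7 and 68.3%, and those of the 83 genes 18.7, 23.7 and 24.1%. The sets thus lay apart at day 3 and day 7, days that chose neither, but both are read against the untreated libraries that did.

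**Figure D5:**
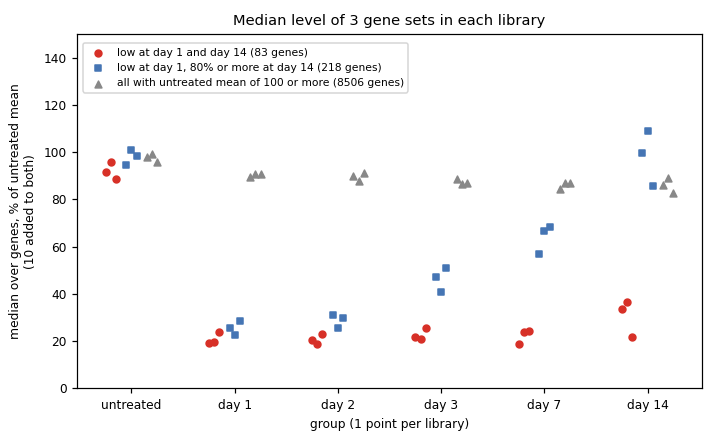
Each point is 1 library, showing the median over genes of the normalized count as a percent of the untreated mean (10 added to both) for the 83 genes (circles), the 218 genes that were back at 80% or more at day 14 (squares) and all 8506 genes with the untreated level (triangles). The 83 genes stay near 20% from day 1 to day 7, and at day 14 replicate 3 lies under the other 2 libraries.

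Contrasts among days 2, 3 and 7, which the choice of genes did not use, found few differences within the set. Between day 2 and day 3, 1 of the 83 genes rose (C8a) and none fell, against 0.22% and 0.0297% of the 16824 genes tested and 0.25% in either direction. Between day 3 and day 7 none of the 83 passed edgeR's test (0.0178% of all), 10 had an unadjusted p under 0.05 (4 higher and 6 lower), and DESeq2 and limma-voom also called none. Between day 2 and day 7, 3 genes rose (C8a, Gatm and Slc22a26) and none fell, against 2.77% and 2.44% of all genes and 5.21% in either direction. The share of the set, 3.61%, was thus close to that of all genes. The median log2 difference of the 83 genes was 0.15, 0.07 and 0.04 in the 3 contrasts, beside 0.02, -0.02 and 0.01 over all genes.

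The day 14 libraries differed from each other. The median of the 83 genes was 33.7, 36.3 and 21.8% of untreated in day 14 replicates 1, 2 and 3, and 53 genes had their lowest day 14 value in replicate 3 against 15 in each of the others. All genes with the untreated level had medians of 86.3, 88.9 and 82.8%, and the 218 genes back at 0.8 times or more had 99.7, 109.0 and 85.7%. Summed markers of leukocytes, of fibroblasts and pericytes and of injured tubule were higher at day 14 than in untreated kidney, and highest in this library. The summed leukocyte list (12 genes) was at 1925 to 2663 in untreated kidney, at 10597 and 10460 in day 14 replicates 1 and 2 and at 18862 in replicate 3. The fibroblast and pericyte list (10 genes) was at 1132 to 1864 in untreated kidney, at 6974 and 5012 and at 11498. The injured-tubule list (11 genes) was at 3928 to 5051 in untreated kidney, and its day 14 sums are given above. In each of these 3 lists the summed level thus lay above untreated in all 3 day 14 libraries. That the 83 genes lay below follows from how they were chosen. Other lists did not rise in this way. The endothelial list was at 6590 to 9071 in untreated kidney and at 6852, 8304 and 6056 in day 14 replicates 1, 2 and 3. The podocyte list was at 6630 to 10048 and at 7864, 7786 and 6599, and the red blood cell and plasma list at 409 to 424 and at 438, 645 and 177. In each of them replicate 3 was the lowest day 14 library and lay under untreated. Without day 14 replicate 3, 58 of the 83 genes still met the rule. How far these markers bear on the low values was not tested.

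The set holds 0.976% of the genes with the untreated level, and 10.2% of all genes with that level were at 0.4 times untreated or less at day 1. The counts by gene family and by segment are read against these shares. Of 216 Slc genes with the untreated level 65 were at 0.4 times untreated or less at day 1, and 2 are in the set, which is close to 0.976%. Of 113 Tmem genes 18 were that low at day 1 and 4 are in the set, and of 6 Slco and 7 Ugt genes 3 and 5 were that low and 1 of each is in the set. Of 26 Cyp genes 11 were that low at day 1, as were 4 of 4 Acsm, 5 of 26 Abc and 2 of 13 Gst genes, and none of these is in the set. Of 35 proximal tubule genes of the S1 and S2 segments, 23 were at 0.4 times untreated or less at day 1 and 2 at day 14 (Spp2 and Slc34a3), with a day 14 median of 62.8% of untreated, beside 3.28% of all genes with the untreated level at or under that limit at day 14. Of 24 genes of the S3 segment 17 were that low at day 1 and 1 at day 14 (Slco1a1), with a median of 56.1%. Between day 2 and day 7, 5 of 36 tested S1 and S2 genes rose and 1 fell, and 6 of 24 S3 genes rose and none fell, beside 2.77% higher and 2.44% lower over all genes tested.

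The limit of 0.4 divides a continuous range. Just inside it at day 1 were Ablim3 (0.398 times untreated) and Klhl8 (0.390), and just outside were Ciao2a (0.411) and Efna1 (0.412), which met the other conditions. At day 14 Acox2 and C8a (both 0.398) were just inside, and Hpd (0.405), an enzyme of tyrosine breakdown, and Hyi (0.407) just outside. Of 82 members in the gene annotation, 34 overlap a gene on the other strand, Arntl among them, and their counts are uncertain if the counting did not use strand. Another gene on the same strand overlaps 15, among them Npas2 and Magi2, and their counts are uncertain either way. Genes with near-identical copies, such as Ugt2b38, Slc22a26 and Eci3, are uncertain as well, since 18.4 to 28.5% of the reads of a library had more than 1 place in the genome and were left out of gene counts.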

How the data were processed

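Total RNA of frozen kidney, 10 ng per sample, was amplified with NuGEN SPIA reagents, per the labels' protocols. Per the submitters' processing notes, cutadapt, TopHat2 2.07, build NCBIM37, HTSeq and DESeq were used; the strand setting is not given in the sources used here. The deposited raw tables hold the authors' read count for 37991 genes and 5 tallies, which held 34.5 to 51.3% of the reads and stayed out of all tests and library sizes. The deposited normalized tables, taken as the unit signal, hold those counts divided by 1 size factor per sample (0.218 to 1.97) and gave the levels.

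Symbols were found for 32919 genes in GENCODE M21 and not for 5072. Contrasts among days 2, 3 and 7 were fitted to the raw counts of all 18 libraries with edgeR 4.0.16 (two-sided quasi-likelihood test after TMM scaling and filterByExpr), and called at a Benjamini-Hochberg adjusted p under 0.05 over 16824 genes. This test gives no SE, so the SE printed is the size of the log2 difference over the square root of its F value. The overlaps of genes come from GENCODE M21, a later build than the authors', and promoters from RefSeq on GRCm38.p6. The software was R 4.3.3, DESeq2 1.42.0, limma 3.58.1, pandas 2.3.3, matplotlib 3.10.9 and Python 3.11.15.

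Genes named were the 24 lowest with a symbol, up to 4 of each of 22 lists, the 2 on either side of each limit, and called genes. The others were named after their values were seen, to account for the set; 2 of the 83 are not reported here by name but stay in all counts. The members and lists were chosen with earlier results of these data known.

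Alternatives changed the rule's settings, the scaling, the filter, the tool and the libraries. The untreated median and the count kept without each library were added after seeing the data.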

Additional observations from a re-analysis of the deposited data

How the results depend on the processing

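The number of genes that met the rule was 83, and it was 22 with a limit of 0.3, 202 with a limit of 0.5, 180 without the condition on overlap, 45 with the untreated median in place of the mean (40 of the 83 among them) and 16 when kept without each library in turn. Leaving out 1 library gave 74 to 155 genes, with 135, 122 and 139 without untreated replicates 1, 2 and 3, 122 and 155 without day 14 replicates 1 and 2, and 74 without day 14 replicate 3. Of the 83 genes 65, 60 and 68 remained without untreated replicates 1, 2 and 3, and 58 without day 14 replicate 3. Other settings of the rule (pseudocount 0 or 1, CPM with TMM scaling, an untreated mean of 50 or 200) gave 65 to 103 genes. Moves in the day 14 ratio of a single gene were read against the spread of its day 14 libraries alone, which leaves out the untreated spread. The ratio moved by more than that in 24, 29 and 28 genes without untreated replicates 1, 2 and 3. It did so in 10 genes with no pseudocount and in none with TMM scaling. Tmem169 went from 0.301 to 0.407 without untreated replicate 2 and was not counted as moved. The counts at 0.4 times untreated or less were 66 to 69 at day 2, 68 to 73 at day 3 and 72 to 75 at day 7 when 1 library was left out.

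Of the 83 genes, 1 passed between day 2 and day 3, and 3 passed with library totals alone, 3 without the low-count filter, 6 with DESeq2, 0 with limma-voom and 0 with only the day 2, 3 and 7 libraries. Leaving out 1 library gave 0 to 3. Between day 2 and day 7, 3 passed, and 5 passed with library totals, 9 with DESeq2 and 1 with limma-voom, or 1 to 5 without 1 library. Between day 3 and day 7 the count was 0 in every fit. Over all genes, 42 passed between day 2 and day 3, and the count was 166 with library totals, 388 without the filter, 722 with DESeq2, 12 with limma-voom and 2 with only those 3 days. Between day 2 and day 7 the count was 877, and 1763 with DESeq2, 565 with limma-voom and 324 with only those 3 days. The cause of these differences was not tested. DESeq2 used its own filter, and the fit on 3 days had fewer samples.

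Same-numbered libraries did not deviate together over the tested genes (correlations of -0.0704 to 0.0326), so no pairing by replicate number was seen. A weak pairing, or one in a few genes, would not show in this check. With the replicate number as a block, 0 of the 83 genes passed between day 2 and day 3, 0 between day 3 and day 7 and 3 between day 2 and day 7. The C8a difference between day 2 and day 3 was 4.44 with the replicate block and did not pass, 4.52 with only those 3 days and 4.22 with limma-voom.

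Depth limits the low genes most, since day 2 replicate 2 held 2.83 M reads outside the mitochondrial genome.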
